A study of Homo sapiens with 4 samples.

Results

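The regions described here are the promoter design regions of human chromosome 4 on a tiling array, followed from one end of the chromosome to the other. They were chosen as the regions whose probes lie on chromosome 4, match a single place in the genome according to the files, and number at least 10. Of 708 design regions on chromosome 4, 9 had no single-match probe and 17 had 1 to 9 of them, which left 682 regions with 14564 probes, out of 16831 such regions on all chromosomes. Chromosome 4 was picked because its log2 ratios were already known to lie low, so all log2 ratios below are a description of it, and no test supports its choice.

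The study used HEK293, a human embryonic kidney cell line, stably transfected with the HA-tagged transcription factor RPF-1, which is made when tetracycline is withheld. The DNA pairs of 4 arrays were compared, each from cells kept 48 h without tetracycline (induced, Cy5 dye) and with it (uninduced, Cy3 dye), and both members of a pair were precipitated with an anti-HA antibody after 10 min in 1% formaldehyde. The value of a probe is the log2 ratio of induced to uninduced signal, so 0 means equal precipitation relative to the rest of the array. The 4 arrays are the only replicates (n = 4 throughout, errors are SD over arrays), and every pair had the same dye orientation. The files mark arrays 1 and 2 N39 and arrays 3 and 4 N44. The DNA without and with tetracycline is numbered 4 and 3 for array 2, 10 and 7 for array 3, and 13 and 9 for array 4. Array 1 has no such numbers, and what the marks and numbers stand for is not known here. Whether the stable transfectants are 1 clone is not stated in the labels. Nothing there says that the arrays came from separate cultures, so calls rest on the spread between these arrays alone.

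The labels give the factor only as RPF-1, a name in use for retina-derived POU-domain factor 1, and it is taken as that here. POU-domain proteins bind DNA through a POU-specific domain joined to a homeodomain, and their best known sites are rich in A and T. Chromosome 4 is one of the more AT-rich and gene-poor human autosomes, and its long arm carries clusters of related genes such as those for CXC chemokines, caseins and glucuronosyltransferases. The files name regions by position and not by gene, and their positions run to 191099467 on chromosome 4, past the last gene of the GRCh38 RefSeq table at hand (190196239), so regions are given by the files' own coordinates without gene names.

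Relative to the rest of each array, promoter regions of chromosome 4 had slightly low ratios of induced to uninduced signal in arrays 1, 2 and 4. Averaged over the 682 regions, the log2 ratio was -0.120, -0.144, 0.017 and -0.109 in arrays 1 to 4, a mean of -0.089 ± 0.072 or 0.940-fold. Arrays 1, 2 and 4 lay together below 0 and array 3 lay just above it, and without array 3 the mean was -0.124. Among the 22 autosomes chromosome 4 had the lowest mean and was the lowest in arrays 1, 2 and 4, but ranked 15 from the lowest in array 3. The other autosomes spanned -0.069 to 0.072.

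The low mean went with a shift of the whole distribution rather than a tail of a few regions. The median region stood at -0.092, against -0.015 for the 15484 regions of the other autosomes, and the quartiles were -0.221 and 0.032 against -0.146 and 0.123. The spread between regions was the same size, with a standard deviation of 0.201 on chromosome 4 and 0.182 to 0.219 on the other autosomes. Of the 682 regions, 464 (68.0%) had a mean below 0, against 53.2% elsewhere. Array 1 placed 466 of them below 0, array 2 placed 499, array 3 placed 365 and array 4 placed 478.

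All 4 arrays put 241 regions (35.3%) below 0 and 62 (9.09%) above it, while the remaining 379 had no common sign. On the other autosomes pooled, 25.7% of regions lay below 0 in all arrays and 18.1% above. Chromosome 4 was not the extreme for regions below 0 in all arrays. That share was 38.9% on chromosome 22 and 35.7% on chromosome 10. Both ends of the distribution moved: 35 regions (5.13%) had a mean of -0.4 or lower and 6 (0.880%) a mean of 0.4 or higher, against 2.51% and 3.24% of the other autosomal regions. A further 103 regions (15.1%) were below 0 in arrays 1, 2 and 4 and above 0 in array 3, a pattern held by 5.99% of regions elsewhere.

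Fitted over all 16831 regions (limma, each region against 0, adjusted p threshold 0.05), 166 regions of chromosome 4 (24.3%) were called lower and 28 (4.11%) higher. Over all regions tested, 14.8% were called lower and 11.4% higher. Nothing is read from these shares, because the chromosome was chosen on the same ratios. Without array 2 the counts were 72 lower (10.6%, against 5.94% of all regions) and 15 higher (2.20%, against 4.93%). Without array 4 they were 60 lower (8.80%, against 5.01%) and 9 higher (1.32%, against 4.98%). None of the 28 regions called higher was next to another of them. The 166 called lower fell into 119 runs of neighbours, 86 of which were single regions, and 3 of which reached 4 regions. The spacing that the shares of 4.11% and 24.3% would give by themselves was not computed, so nothing is read from it.

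Probes on this array are lengthened where the sequence is AT-rich in the usual design of such arrays, so length serves here as a stand-in for base composition, which could not be read without a genome of the files' build. Probes were 50 to 74 bases long on the whole array. Chromosome 4 had the longest mean probe length of the autosomes, at 53.1 bases per region against 51.1 to 52.7 on the others. A mean of 54 bases or more was found in 205 of its regions (30.1%) and in 14.6% of the others, and 55.4% of its single-match probes had the shortest length of 50 bases, against 68.8%.

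The arrays responded to probe length in different ways. Over the regions of chromosome 4 the log2 ratio changed by -0.049 per base of mean length in array 1, by -0.024 in array 2, by 0.064 in array 3 and by -0.005 in array 4. The slope was thus downward and steepest in array 1, upward in array 3 and close to flat in array 4, so that its mean, -0.003 ± 0.049, hides opposite slopes. The other autosomes had slopes of -0.035, -0.018, 0.071 and 0.008 in the same order. Array 4 was the one whose slope had different signs in the 2 sets, both small.

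Classes of short and of long probes show the disagreement. The 39 regions of chromosome 4 with a mean length of 56 to 57 bases averaged -0.349, -0.196, 0.230 and -0.129 in arrays 1 to 4. The 101 regions with a mean length under 51 bases averaged -0.088, -0.080, -0.146 and -0.142. Short-probed regions were thus below 0 in every array with a small spread (-0.114 ± 0.035), whereas those of 56 to 57 bases spread to either side (-0.111 ± 0.246). The 17 regions of 57 to 58 bases spread likewise, at -0.407, -0.333, 0.202 and -0.170. The 2 regions of 58 bases and longer lay below 0 in all 4 arrays, at -0.740, -0.646, -0.153 and -0.463.

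**Figure D1:**
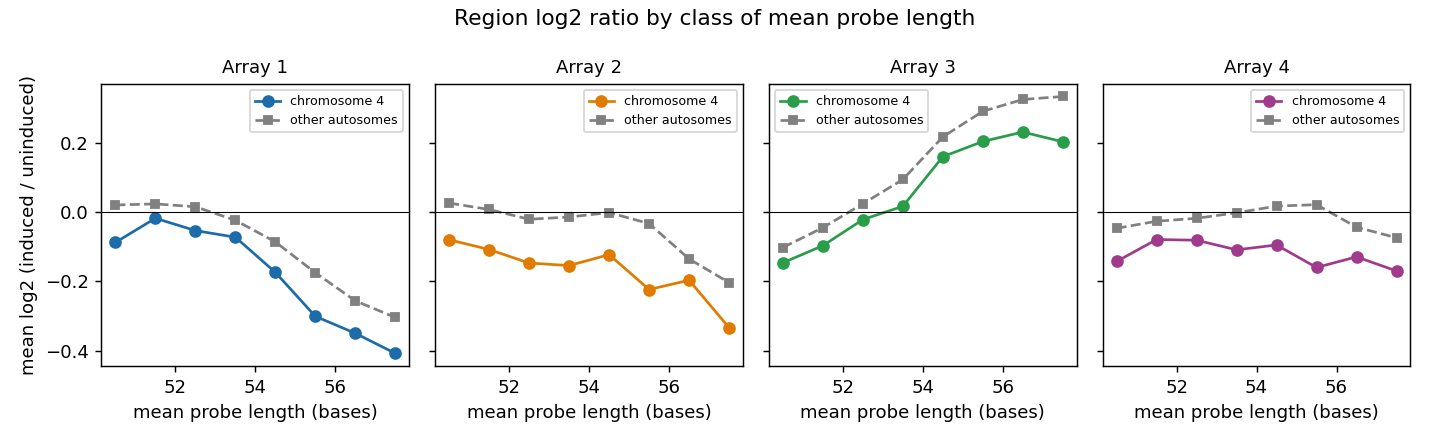
Mean log2 ratio of regions (vertical axis) by class of mean probe length in bases (horizontal axis, classes 1 base wide with at least 10 regions of chromosome 4), one panel per array, for chromosome 4 (coloured circles) and the other autosomes (grey squares). The curves fall in array 1 and rise in array 3, and chromosome 4 lies below the other autosomes at each of the 8 lengths in all 4 panels.

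Each region of chromosome 4 was then set against the other-autosome regions in the same 1-base class of mean probe length. The difference was -0.077, -0.125, -0.063 and -0.093 in arrays 1 to 4, a mean of -0.089 ± 0.027, or 0.940-fold. All 4 arrays, array 3 included, now lay below 0, and the spread between arrays fell from 0.072 to 0.027 while the mean kept its size. Arrays 1 and 2, marked N39 in the files, gave -0.101, and arrays 3 and 4, marked N44, gave -0.078. The other autosomes, treated the same way, ranged from -0.061 on chromosome 13 to 0.088 on chromosome 12, so chromosome 4 again had the lowest mean. In array 1 it ranked 2 from the lowest, after chromosome 21 at -0.081.

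The difference was present at each length. Across the 9 classes it lay between -0.065 ± 0.034 (51 bases, 107 regions) and -0.380 ± 0.052 (58 bases and longer, 2 regions only), and it was below 0 in 4 of 4 arrays in every class. In the shortest class, which holds 101 regions, it was -0.088 ± 0.030. In the classes from 50 to 57 bases the size showed no steady change with length, and the largest value, -0.146 ± 0.049, was at 55 bases.

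Single probes gave the same direction with less agreement in array 3. Among probes of exactly 50 bases, 8105 on chromosome 4 averaged -0.006, -0.007, -0.042 and -0.089 in arrays 1 to 4, and differed from those of the other autosomes by -0.057, -0.083, -0.006 and -0.065. The largest difference was at 55 to 56 bases, -0.138 ± 0.037 over 1161 probes. At 65 to 74 bases, where 89 probes remained, it was -0.013 ± 0.036, below 0 in 3 of 4 arrays. When each probe was matched on its own length before regions were averaged, the difference of chromosome 4 was -0.087, -0.103, -0.011 and -0.082. Array 3 was then nearly at 0, and was over 5 times closer to it than with regions matched on their mean length.

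**Figure D2:**
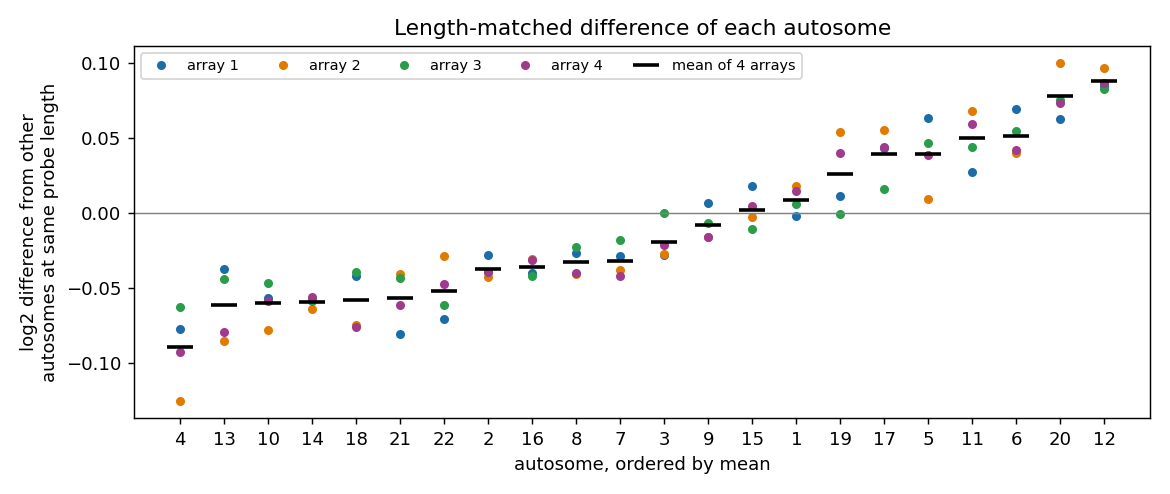
Difference of each autosome from the other autosomes at the same mean probe length (vertical axis, log2) for the 22 autosomes ordered by their mean (horizontal axis); points are arrays and bars the mean of 4 arrays. Chromosome 4 is at the left end with a mean of -0.089, and chromosome 12 at the right end with 0.088.

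After this matching, 32 of the 34 windows of 5 Mb with at least 5 regions had a mean below 0 on chromosome 4, and 23 lay below 0 in all 4 arrays. Of 494 such windows on the other autosomes, 56.5% lay below 0 and 37.0% did so in all 4 arrays. By chromosome the share below 0 ran from 15.4% to 100%, the latter on chromosome 21, which has 7 windows. It was 93.3% on chromosomes 13 and 18, with 15 windows each, so a share about this high was not confined to chromosome 4. The share below 0 in all 4 arrays was 67.6% on chromosome 4, 64.3% on chromosome 10 and 85.7% on chromosome 21. The windows of chromosome 4 had a standard deviation of 0.048 around a median of -0.087, and those of the other autosomes had standard deviations of 0.042 to 0.102 with a median of 0.070.

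The chromosome fell into 39 windows, of which 4 held fewer than 3 regions (6 regions in all) and are not described, and 1 held 3. The window of 3 regions, from 60 to 65 Mb, stood at -0.315 ± 0.308, and at -0.263 ± 0.072 after matching. Before matching, 31 of the 34 windows with at least 5 regions had a mean below 0. In arrays 1, 2 and 4 the windows below 0 numbered 32, 33 and 33, and in array 3 they numbered 13. After matching, array 3 had 27 of 34 below 0, beside 27, 32 and 33 in arrays 1, 2 and 4. The number of windows below 0 in all 4 arrays thus rose from 12 to 23.

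**Figure D3:**
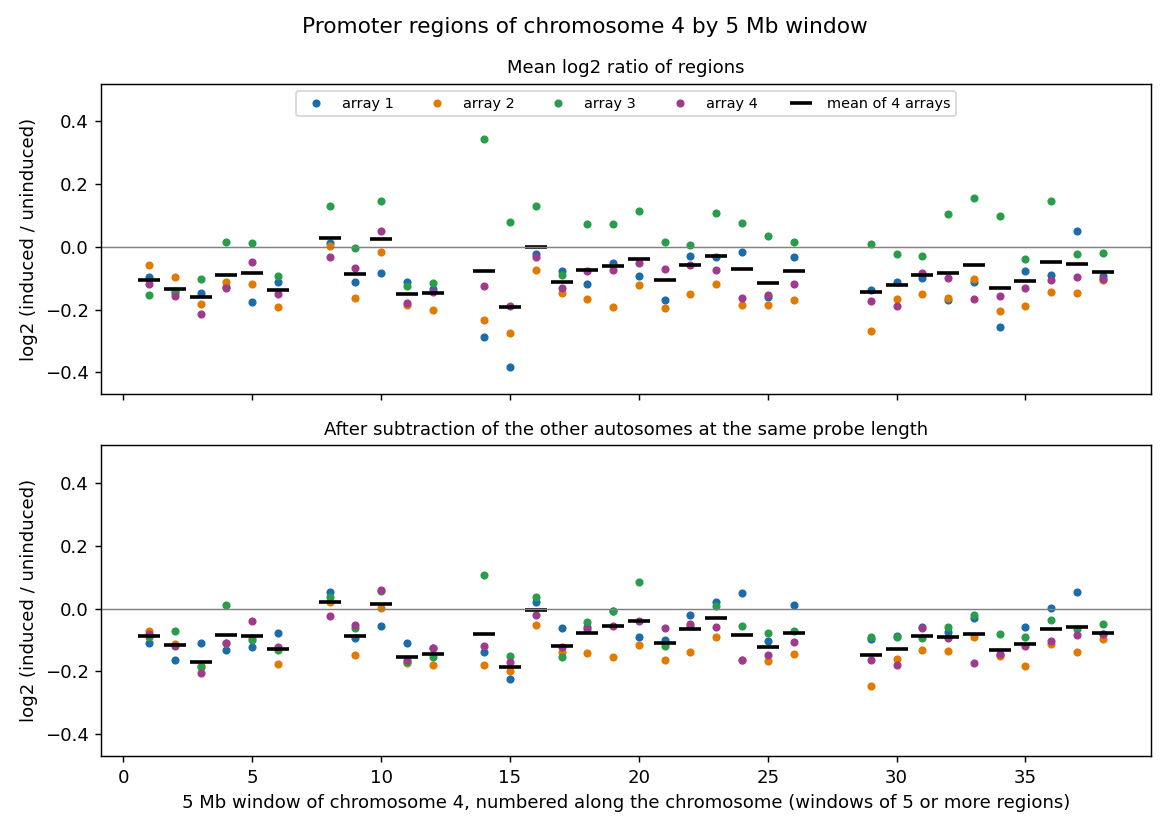
Mean log2 ratio of the regions in each 5 Mb window of chromosome 4 (vertical axis) by window number along the chromosome (horizontal axis), as measured (upper panel) and after subtraction of the other autosomes at the same mean probe length (lower panel); points are arrays, bars the mean of 4 arrays. Array 3 has 13 of 34 windows below 0 in the upper panel and 27 in the lower panel, where 32 of the 34 means are below 0.

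Among windows with at least 5 regions, the lowest ran from 70 to 75 Mb. It held 37 regions with a mean probe length of 55.2 bases. Its log2 ratio was -0.383, -0.274, 0.079 and -0.188 in arrays 1 to 4, a mean of -0.192 ± 0.197. Array 3 stood on the other side of 0 from the rest. After matching, the arrays gave -0.223, -0.200, -0.152 and -0.169, a mean of -0.186 ± 0.032, so the window was the lowest by both measures and its arrays then did not differ in sign. Before matching, arrays 1 and 2 alone gave -0.328 and arrays 3 and 4 alone -0.055. Of its 37 regions, 15 were called lower and 1 higher. On the whole chromosome the shares were 24.3% and 4.11%, and over all regions tested 14.8% and 11.4%. The window was picked as the lowest on the same ratios, so nothing is read from these counts.

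Next came the window from 10 to 15 Mb, with 9 regions at -0.161 ± 0.047. Its arrays gave -0.145, -0.183, -0.104 and -0.213, all below 0, and after matching it was the second lowest at -0.170 ± 0.042. The windows from 50 to 55 Mb (14 regions, -0.15 ± 0.036) and from 55 to 60 Mb (19 regions, -0.148 ± 0.037) followed, neighbours of each other. In both of them every array lay between -0.201 and -0.113, and array 3 did not stand apart. Neither had a region called higher, which was so in 20 of the 34 windows with at least 5 regions. Of all regions of the chromosome 4.11% were called higher, and of all regions tested 11.4%.

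The highest window ran from 35 to 40 Mb, where 24 regions gave 0.012, 0.002, 0.131 and -0.031, a mean of 0.029 ± 0.071. After matching it stayed the highest at 0.023 ± 0.033, which is less than its spread. The second highest, from 45 to 50 Mb, held 19 regions with -0.082, -0.017, 0.145 and 0.050, a mean of 0.024 ± 0.097, and 0.016 ± 0.053 after matching. These were the only 2 of the 34 windows above 0 after matching. Without array 3, the window from 35 to 40 Mb stood at -0.005 before matching. The third, from 75 to 80 Mb, held 36 regions at 0.001 ± 0.090, directly beside the lowest window, and the fourth, from 110 to 115 Mb, held 24 regions at -0.028 ± 0.097. None of these 4 windows lay further from 0 than its own spread between arrays.

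Long stretches of the chromosome gave similar values once length was matched. The first 50 Mb (203 regions) stood at -0.073 ± 0.016, 50 to 100 Mb (196 regions) at -0.102 ± 0.033, 100 to 150 Mb (159 regions) at -0.097 ± 0.047 and the rest (124 regions) at -0.086 ± 0.034. These neighbouring values differ by less than the larger of their spreads, but the stretches share the same arrays. Array by array, 50 to 100 Mb gave -0.093, -0.145, -0.066 and -0.102. The first 50 Mb gave -0.092, -0.078, -0.055 and -0.069, higher in all 4 arrays, though barely so in array 1. The later neighbouring stretches did not differ in the same direction in all 4 arrays. The share of regions called lower was likewise 24.1, 24, 24.5 and 25%. The share called higher was 7.39% in the first 50 Mb, and 3.06, 3.14 and 1.61% in the 3 others.

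The first 10 Mb differed from the rest in its probes, while its mean after matching was close to that of the rest. Its 97 regions had a mean probe length of 51 bases, against 53.4 beyond, and their log2 ratio was -0.114, -0.072, -0.148 and -0.132 in arrays 1 to 4. Array 3 was thus the lowest of the 4 here, while over the 585 regions beyond 10 Mb it was the only one above 0, at 0.044 beside -0.121, -0.156 and -0.105. The means before matching were -0.116 ± 0.033 and -0.085 ± 0.088. Matched on length, the 2 stretches gave -0.098 ± 0.022 and -0.088 ± 0.032. By array the matched values were -0.129, -0.086, -0.082 and -0.094 in the first 10 Mb. Beyond it they were -0.068, -0.132, -0.059 and -0.092, so array 2 went against the others.

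The 3 windows from 60 to 75 Mb together held 53 regions with a mean probe length of 55.3 bases. They gave -0.370, -0.272, 0.147 and -0.185 in arrays 1 to 4, and -0.165 ± 0.053 after matching. Without them, chromosome 4 stood at -0.083 ± 0.027 after matching, so most of its difference lay outside them.

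The first region of the chromosome was one of its highest and its neighbours were low. The region from 41026 to 43776 had a log2 ratio of 0.526 ± 0.219. The next 26 regions, from 112201 to 1829972, all had means below 0, which was the longest such run on the chromosome. They averaged -0.155, -0.097, -0.235 and -0.180 in arrays 1 to 4, a mean of -0.167 ± 0.057, with a mean probe length of 50.7 bases. The longest run above 0 was 7 regions, from 186583562 to 187303544, at 0.130 ± 0.099. The last region of the chromosome, from 191096767 to 191099467, stood at 0.102 ± 0.164.

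The correlation between neighbouring regions was highest in the closest pairs, which were few, so its value there is imprecise. In 30 pairs of consecutive regions at most 10 kb apart, the mean log2 ratios correlated across pairs with Pearson's r = 0.290. The r was 0.093 in 143 pairs 10 to 50 kb apart, 0.019 in 299 pairs 50 to 200 kb apart and -0.027 in 209 pairs further apart. On the other autosomes pooled, where differences between chromosomes also enter, the values were 0.188, 0.176, 0.137 and 0.101. Probe lengths of the same chromosome 4 pairs correlated more strongly, at 0.498, 0.614, 0.40 and 0.221. All pairs share the same 4 arrays, so these values are a description.

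The arrays ordered the regions of chromosome 4 alike in part, and most pairs of arrays did so more after matching. Over the 682 regions the 6 pairs of arrays correlated with r between 0.273 (arrays 1 and 3) and 0.654 (arrays 2 and 4), with a median of 0.585. After matching, the range was 0.517 to 0.679 and the pair of arrays 1 and 3 was at 0.517. Arrays 1 and 2 did not gain, with 0.603 before and 0.600 after. Over the 34 windows the pair of arrays 1 and 3 moved from -0.161 to 0.343. There arrays 1 and 2 fell from 0.537 to 0.396 and arrays 1 and 4 from 0.398 to 0.349, while the remaining pairs rose. Regions share probes' base composition and dye orientation across arrays, so these values describe agreement and carry no p.

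Inside the regions, arrays 1, 2 and 4 lay below the other autosomes from the centre to the edges, and array 3 did not in every class. In the 626 regions of 2700 bp, probes within 250 bp of the centre averaged -0.080, -0.181, 0.054 and -0.078 in arrays 1 to 4, and differed from those of the other autosomes by -0.087 ± 0.065. Probes 1000 bp or more from the centre averaged -0.132, -0.108, 0.009 and -0.122, and differed by -0.086 ± 0.057. In the 3 distance classes between them the difference was -0.062 to -0.087. From the centre outwards, array 3 differed by -0.0004, 0.019, 0.009, 0.009 and -0.004, above the other autosomes in 3 of the 5 classes. These probes were not matched on length. The 56 regions of other sizes had a mean of -0.0996 ± 0.043, against -0.088 ± 0.078 for those of 2700 bp.

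The 16 regions named next are the 8 lowest and the 8 highest on chromosome 4 among those with the same sign in all arrays, so that sign is given by their choice. All 16 were among the regions called by limma.

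The lowest region lay at chr4:70894036-70896736, in the lowest window, and held 22 probes with a mean length of 56.2 bases. It gave -1.02, -0.631, -0.458 and -0.809 in arrays 1 to 4, a mean of -0.729 ± 0.240 or 1.66-fold lower in induced cells. Of its probes, 18 had a mean below 0, and 14 of these followed each other without a break. Its lowest probe, at -2.31, rests largely on 1 value of array 4, and the median of its probes' means was -0.734. The next region before it, 62.1 kb away at chr4:70829187-70831887, was the sixth lowest, with -0.841, -0.847, -0.122 and -0.550 and a mean of -0.590 ± 0.341. Array 3 was the highest of the 4 arrays in both.

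The second lowest, chr4:62043233-62045933, gave -0.927, -0.785, -0.277 and -0.672, a mean of -0.665 ± 0.279 over 13 probes with the longest mean length of the 16 regions, 58.2 bases. Matched on length it stood at -0.545 ± 0.021, with its 4 arrays between -0.568 and -0.516. Its neighbour 64.5 kb before it was also low, at -0.409 ± 0.211, and the next one after it lay 2911 kb away.

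The third lowest, chr4:81473697-81476397, gave -0.508, -0.712, -0.648 and -0.705, a mean of -0.643 ± 0.094 over 24 probes. The arrays sit close together here, array 3 included. The seventh, chr4:52610149-52612849, had the smallest spread of the 16, with -0.534, -0.650, -0.556 and -0.610 and a mean of -0.588 ± 0.052. Both its neighbours were low as well, at -0.310 ± 0.077 (8.75 kb before it) and -0.296 ± 0.063 (607 kb after it).

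The fourth lowest region, chr4:48680821-48683521, gave -0.671, -0.715, -0.471 and -0.648, a mean of -0.626 ± 0.107. Unlike those, it had a high neighbour: the region 75 kb before it stood at 0.364 ± 0.078. The fifth (chr4:20460884-20463591, 10 probes) had a mean of -0.598 ± 0.189, and its neighbours on both sides were near 0. The eighth (chr4:72868252-72870952) gave -0.803, -0.827, -0.148 and -0.477, a mean of -0.564 ± 0.320, between neighbours at 0.210 and 0.112.

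The highest region lay at chr4:48350191-48352891 and held 21 probes with a mean length of 56.6 bases. It gave 0.325, 0.589, 1.06 and 1.01 in arrays 1 to 4, a mean of 0.746 ± 0.351 or 1.68-fold higher in induced cells. Arrays 1 and 2 lay below arrays 3 and 4, and after matching the 4 values were 0.581, 0.724, 0.733 and 1.06. Of its probes 16 were at or above 0, with a highest mean of 2.05. The fourth lowest region, from 48680821, lay in the same 5 Mb window, which was the second highest of the chromosome. Regions of opposite sign stood together in every window with at least 5 regions, so this was not particular to it.

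The second highest, chr4:3283471-3286171, gave 0.244, 0.677, 1.38 and 0.432, a mean of 0.683 ± 0.495. Array 3 carried much of it, and without that array the mean was 0.451. The third was the first region of the chromosome, described above, with 0.399, 0.294, 0.771 and 0.642. The fourth, chr4:41445244-41447944, gave 0.40, 0.348, 0.697 and 0.395, a mean of 0.460 ± 0.160. In it 21 of 23 probes were at or above 0, and these 21 followed each other without a break, while its neighbours 387 kb before and 182 kb after it stood at 0.038 and -0.021.

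The remaining 4 high regions had spreads between arrays of 0.292 to 0.341. At chr4:77212686-77215386 the arrays gave 0.343, 0.359, 0.872 and 0.066, a mean of 0.410 ± 0.336, and 0.256 without array 3. At chr4:21154877-21157577 the mean was 0.395 ± 0.341, and 0.254 without array 4, although all 11 of its probes were above 0. The seventh, chr4:114188118-114190818, had a mean of 0.392 ± 0.292. The eighth, chr4:26469208-26471908, gave 0.761, 0.050, 0.366 and 0.317, a mean of 0.374 ± 0.293, and 0.244 without array 1. Array 3 was the highest of the 4 arrays in the first 5 high regions and in the seventh.

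**Figure D4:**
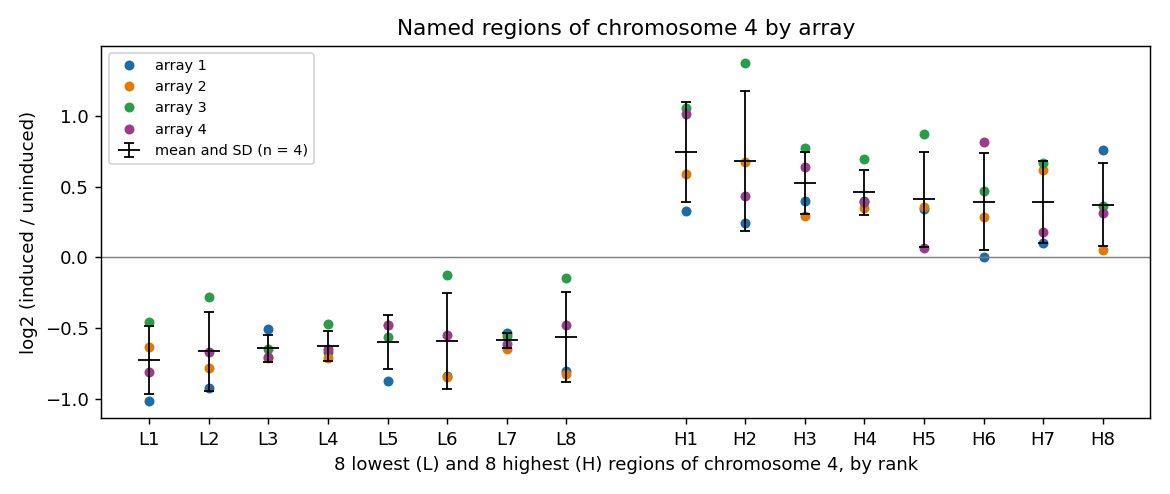
Log2 ratio (vertical axis) of the 8 lowest (L1 to L8) and 8 highest (H1 to H8) regions of chromosome 4 (horizontal axis, by rank); points are arrays, bars the mean with its SD over 4 arrays. The low regions L3, L4 and L7 have the smallest spreads (0.094, 0.107 and 0.052), and array 3 is the top point of H1 to H5 and of H7.

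The neighbours of the named regions lay mostly below 0, as did the regions of the chromosome as a whole. Of 16 neighbours of low regions 10 had a mean below 0, with a median of -0.061, and of 15 neighbours of high regions 10 did, with a median of -0.040. They ranged from -0.729 to 0.364 and from -0.446 to 0.183. The lowest and the sixth lowest region, at -0.729 and -0.590, are each other's neighbour and so are themselves among the neighbours of low regions.

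**Figure D5:**
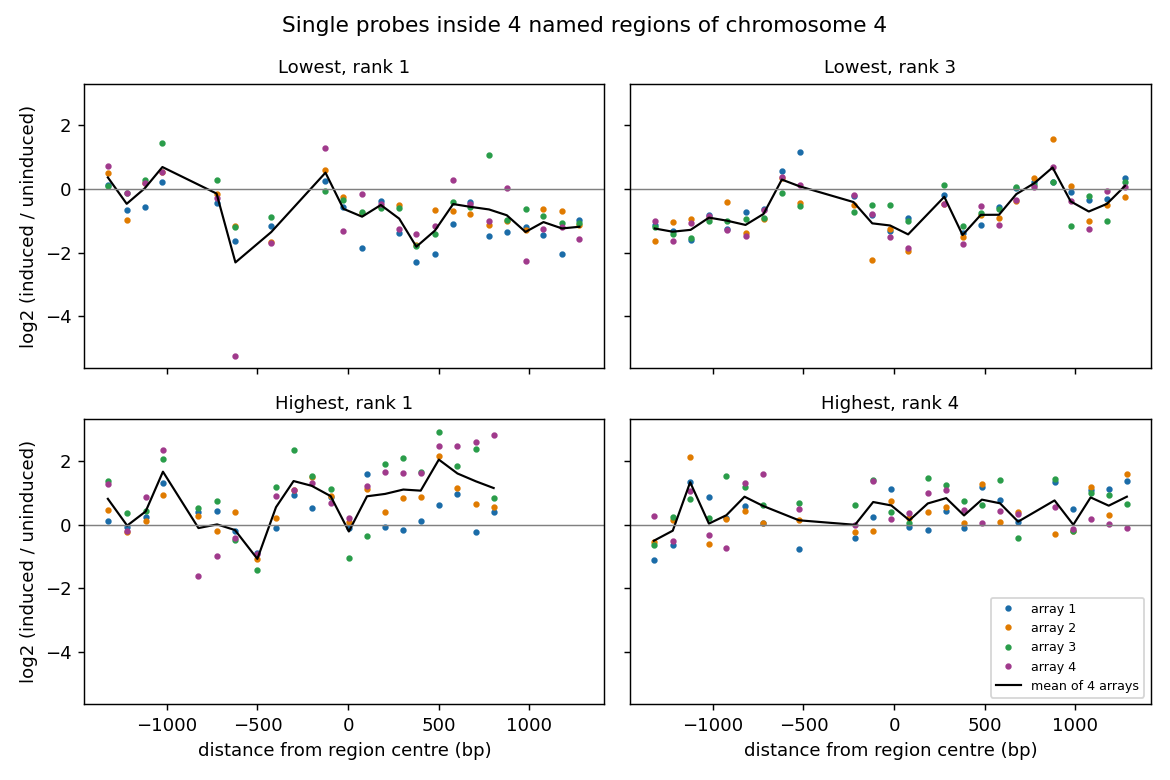
Log2 ratio of single probes (vertical axis) by distance from the region's centre in bp (horizontal axis) in the lowest, the third lowest, the highest and the fourth highest region of chromosome 4; points are arrays and the line is their mean. In the lowest region 18 of 22 probe means lie below 0, and in the fourth highest 21 of 23 lie at or above 0.

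Values on either side of the limit of 10 probes were as follows. The 7 regions with exactly 10 probes gave -0.216, -0.105, 0.008 and -0.102 in arrays 1 to 4, a mean of -0.104 ± 0.092. The only region with 9 probes, just outside, gave -0.432, -0.564, -0.238 and -0.637. All 17 regions below the limit together had a mean of -0.169 ± 0.297, with array 3 at 0.241 and the other arrays below 0.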

How the data were processed

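The authors deposited, per array, a log2 ratio of 635 nm (Cy5) to 532 nm (Cy3) signal for each of 386230 probes, written by NimbleScan per the file headers. The log base is not written and was taken as 2. The headers' biweight means are read as already subtracted, since medians were -0.01 to 0.00. For the program's version, any background correction and the build, the sources used here give nothing. Whether the count field (1 to 111) gives genomic matches is not defined in the files; 1 was read as a single match.

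Each array was centred on its median. Single-match probes were averaged by design region (10 or more). limma 3.58.1 in R 4.3.3 (intercept, empirical Bayes, two-sided, Benjamini-Hochberg over 16831 regions) gave the calls; the fit was first tested on simulated data. Length classes with under 20 comparison regions joined the next shorter one. Regions named are the 8 lowest and 8 highest with one sign in all 4 arrays; windows named are the 4 lowest and 4 highest of those with 5 or more regions, and the 2 lowest and 2 highest after matching. Members, windows and lists were chosen with earlier results of these data known. The planned gene lists need gene names for the regions and were not analysed here. With 4 arrays an exact two-sided sign-flip test cannot go below p = 0.125, and the number of arrays limits the precision.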

Additional observations from a re-analysis of the deposited data

Results flagged for a closer look

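The gap of 1 array from the other 3 was examined with Dixon's test for 87 values (the chromosome's mean, its matched difference and slope, 34 windows before and after matching, and the 16 named regions). In 7 of them 1 array exceeded the 95% critical value, against about 4 by chance (1 in 20), and in 6 of the 7 that array was array 3. In the window from 15 to 20 Mb array 3 gave 0.014 and the other arrays -0.131 to -0.111. After matching, array 3 gave 0.013 there and the others -0.131 to -0.108. In the window from 120 to 125 Mb array 3 gave 0.035 and the others -0.184 to -0.153. In the window from 185 to 190 Mb it gave -0.019 and the others -0.106 to -0.094. In the window from 165 to 170 Mb array 3 gave -0.079 after matching and the others -0.151 to -0.143. In the window from 50 to 55 Mb array 1 gave -0.110 after matching and the others -0.173 to -0.164. At the fourth highest region, chr4:41445244-41447944, array 3 gave 0.697 and the others 0.348 to 0.40. Windows before and after matching share their data, so the 87 values are not independent.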

How the results depend on the processing

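The mean of chromosome 4 and its matched difference stayed below 0 and within 1 SD of the values given under every scaling, probe summary, probe minimum, matching and array subset that was run. The mean ranged from -0.132 (arrays 1 and 2 alone) to -0.046 (arrays 3 and 4 alone), and the matched difference from -0.104 (medians over probes) to -0.071 (single probes matched on length). Leaving out each array gave -0.124 to -0.071 for the mean and -0.098 to -0.077 for the matched difference. The lowest window, the highest window and the slope on probe length moved by less than their spreads between arrays, which are wide. Arrays 1 and 2 by themselves put the lowest window at -0.328, and arrays 3 and 4 put it at -0.055; with each array left out it ran from -0.282 (array 3 out) to -0.128 (array 1 out). The highest window reached 0.070 when 20 or more probes were required and turned negative, at -0.005, when array 3 was left out. The slope turned positive in 4 alternatives: 0.012 without array 1, 0.003 without array 2, 0.005 for regions of 20 or more probes, and 0.030 from the N44 arrays. It was -0.026 without array 3 and -0.037 from the N39 arrays. Regions called higher numbered 46 with array weights (6.74%, against 16.2% of all regions in that fit), 44 with all probes (6.27%, against 13.9%), 16 with 20 or more probes (3.49%, against 11.4%; fewer regions tested) and 16 with arrays 1 and 2 alone (2.35%, against 8.28%). After matching, 43 regions (6.30%, against 15.7% of all regions) were called higher and 200 (29.3%, against 17.7%) lower. Regions called lower numbered 83 with arrays 3 and 4 alone (12.2%, against 8.77%). Leaving out each array gave 9 to 29 regions called higher and 60 to 195 called lower, the low counts without array 4 and array 2. The subtraction of the matched expectation and the omission of 60 to 75 Mb were chosen after seeing the data. All 96 alternative values of the 16 named regions kept their direction, which the naming rule fixes for arrays left out, and 4 moved by over 1.5 times, each a high region without array 1, 3 or 4. The cause of these changes was not tested in any setting. No paired analysis was possible because the arrays form 1 group, and each ratio already pairs induced with uninduced DNA. Signal over background was not used here.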
